A study of Homo sapiens with 36 samples.

Results

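Serine/glycine deprivation of platinum-sensitive ovarian cancer cells was examined by RNA-seq, in the 3 libraries of A2780 wt cells without serine and glycine (wt -SG) and the 3 libraries of untreated wt cells, here called control. These 6 libraries were chosen by their labels out of 36, and the comparison covers every gene with enough counts, 14284 of the 57820 genes in the count table. A2780 is an established human ovarian cancer cell line, and wt is its parental, cisplatin-sensitive form. The whole series adds resistant cells derived from it by chronic cisplatin exposure (cis), cells that grew out of cis under deprivation (cis SSP), and carboplatin treatment, for 12 conditions with 3 libraries each. None of the 6 libraries described here received carboplatin. The study asked how sensitive and resistant cells cope when serine and glycine are taken away from outside.

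The deprived cells were fed homemade RPMI with dialyzed serum and no serine or glycine. For deprivation experiments the protocols in the labels name this homemade medium with or without the amino acids, and for maintenance an RPMI with ordinary serum. They do not say library by library which of them the control had, so an effect of medium or serum cannot be told apart from that of deprivation. A general statement in the study's methods places experiments at day 5 unless noted, and no other day is given for the sequencing. In the study's legends the triplicate libraries are technical replicates, so all standard deviations and p-values here measure the spread between libraries of 1 cell line, not between independent cultures. In bulk RNA, a gene that is lower in fewer cells and one that is lower in every cell cannot be told apart.

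Cells make serine from the glycolytic intermediate 3-phosphoglycerate through PHGDH, PSAT1 and PSPH, and SHMT1 and SHMT2 split serine into glycine and a one-carbon unit carried by folate. Serine also enters the cell through neutral amino acid transporters such as SLC1A4 and SLC1A5. When an amino acid runs short, uncharged tRNA activates the kinase GCN2, translation of the transcription factor ATF4 rises, and ATF4 raises the mRNA of amino acid transporters, synthesis enzymes, aminoacyl-tRNA synthetases and stress factors, many of which carry a composite C/EBP-ATF response element near their start. This programme is called the integrated stress response.

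Total counts on genes were 17937923 to 18788646 in the control libraries and 15362999 to 20441582 in the deprived ones, and reads on mitochondrially encoded genes took 3.35% to 4.79% and 3.75% to 6.31% of them. Expression is given as counts per 1000000 (CPM) of the TMM-adjusted library size, and differences as log2 fold changes of wt -SG over control with their standard error (SE). A gene was called where the quasi-likelihood test of edgeR, adjusted by Benjamini-Hochberg over all genes tested, gave an adjusted p under 0.05. The label of the cells was checked against markers. Of 6 Mullerian lineage markers, 4 (PAX8, WT1, EMX2 and SOX17) had too few counts to be tested, with WT1, EMX2 and SOX17 at 0 in every library. PAX2, of the same list, was at 166 to 169 CPM in control and 182 to 206 CPM in deprived libraries, and VIM, a mesenchymal filament, at 3050 to 3120 and 3760 to 3990 CPM. PAX8 had 0 to 5 counts and the epithelial cadherin CDH1 0 to 4 counts in every library, so 2 defining markers of epithelial ovarian tumours were at or near 0. The 6 leukocyte markers together stayed at 0.223 to 0.456 CPM and the 3 endothelial markers matched at 0 to 0.196 CPM. KRT8 and KRT18, which overlap each other, had 3 to 14 counts. The 5 fibroblast markers summed to 833 to 852 CPM in control and 837 to 868 CPM in deprived libraries, 4 of them were tested, and DCN had 3 to 11 counts.

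Of the 14284 genes tested, 7021 were called, or 49.2%. They split into 3436 higher without serine and glycine (24.1%) and 3585 lower (25.1%). In 6764 of the called genes (96.3%) the control and deprived libraries did not overlap, which follows largely from the call and is no separate support. The share without overlap over all genes tested is not given. Most differences of called genes were small. Called genes had a median change of 0.28 on the log2 scale, whatever its sign, and 260 genes (1.82%) were called with a change of 1 or more on the log2 scale in either direction, of which 135 were higher and 125 lower. These shares are the background against which the members of each gene group below are read, and the median log2 fold change over all genes tested was 0.01. A fit over all 36 libraries in place of 6, with filter, normalization and spread taken from the 36, tested 16677 genes and called 2821.

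**Figure D1:**
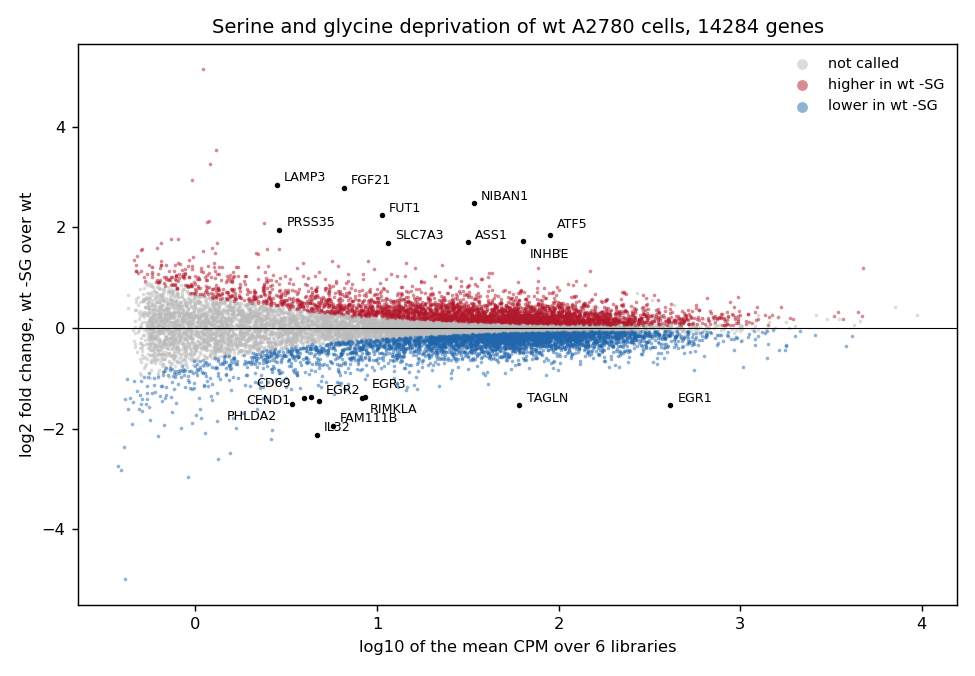
Log2 fold change of wt -SG over control (vertical axis) against the log10 of the mean CPM over 6 libraries (horizontal axis) for the 14284 genes tested, with called genes in red (higher) and blue (lower) and the rest in grey. The labelled genes are among the 10 largest rises and 10 largest falls of called genes with a mean of at least 50 counts, from LAMP3 at 2.85 to IL32 at -2.13.

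The enzymes of serine synthesis rose slightly. Of the 5 genes of synthesis and of the serine-glycine exchange, 4 were called higher and 0 lower (0 also at an unadjusted p under 0.05 and by DESeq2), with a median log2 fold change of 0.17. PHGDH (chr1:120191034-120286841, GRCh37), which oxidises 3-phosphoglycerate, was at 466, 490 and 469 CPM in the control libraries and at 530, 538 and 539 CPM in the deprived ones. All deprived libraries lay above all control libraries, by a log2 fold change of 0.17 (SE 0.0236, adjusted p = 3.91e-06). PSAT1 (chr9:80912041-80945009), the aminotransferase of the second step, rose from 913, 919 and 895 to 1070, 1090 and 1080 CPM, again with no overlap (log2 fold change 0.25, SE 0.0198, adjusted p = 1.80e-09). PSPH (chr7:56078744-56119297), the phosphatase that releases serine and a gene with near-identical copies elsewhere in the genome, moved from 72.2 to 73.8 CPM to 77.8 to 79.6 CPM (log2 fold change 0.11, SE 0.0358, adjusted p = 0.0134). The mitochondrial SHMT2 (chr12:57623356-57628718) was at 294 to 299 CPM in control and 342 to 353 CPM in deprived libraries (log2 fold change 0.23, SE 0.0243, adjusted p = 9.91e-08). Its cytosolic counterpart SHMT1 (chr17:18231174-18266877) read 47.4, 46.5 and 47.6 CPM against 45.5, 46.6 and 45.1 CPM, the groups overlapped, and it was not called (log2 fold change -0.04, SE 0.0428, adjusted p = 0.414). The summed level of the 5 genes was 1780 to 1820 CPM in control and 2080 to 2110 CPM in deprived libraries. SHMT2 overlaps NDUFA4L2 on the opposite strand, and the strand setting of the counting is not stated. In the fit over 36 libraries the adjusted p was 0.348 for PHGDH, 0.329 for PSPH and 0.0758 for SHMT2, and only PSAT1 among the 5 was called. PSPH also lost its call in DESeq2 (adjusted p = 0.0916) and without the third control library (adjusted p = 0.0511).

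**Figure D2:**
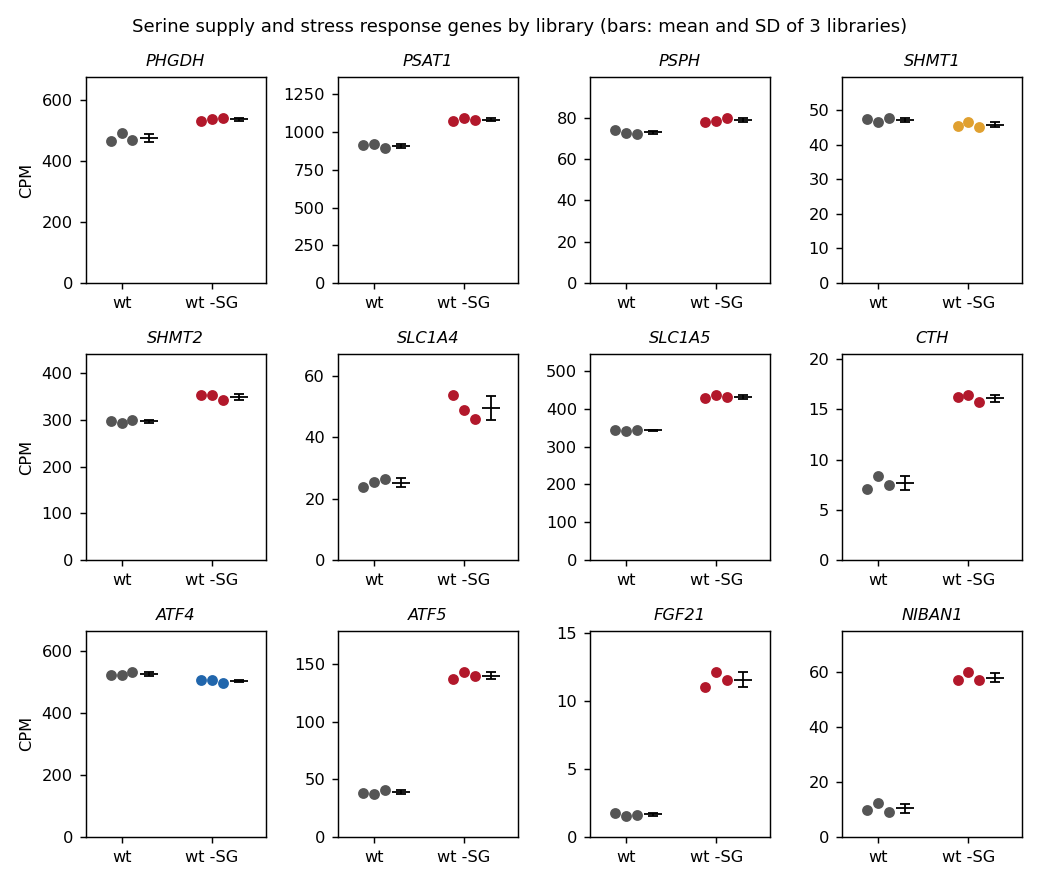
CPM in each of the 3 control (wt, grey) and 3 deprived (wt -SG) libraries for 12 genes of serine supply and the stress response, each panel with its own axis from 0. Bars give the mean and SD of 3 libraries, red marks genes called higher, blue lower and orange not called. SHMT1 overlaps between the groups, while FGF21 and NIBAN1 stand several-fold apart.

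Most amino acid transporters rose. Of 16 transporters tested, 11 were called higher and 3 lower, with a median log2 fold change of 0.25 and a summed level of 3600 to 3680 CPM in control against 4310 to 4540 CPM in deprived libraries. SLC1A4 (chr2:65215611-65250999), an exchanger of serine, alanine and cysteine, was at 23.8, 25.5 and 26.5 CPM in control and 53.8, 49.1 and 46.2 CPM in deprived libraries. The groups were far apart, at a 1.97-fold difference (log2 fold change 0.98, SE 0.0599, adjusted p = 9.66e-11). SLC1A5 (chr19:47278140-47291851), which carries glutamine as well as serine and shares its locus with a gene on the opposite strand, was at 342 to 344 CPM and 428 to 436 CPM (log2 fold change 0.33, SE 0.0224, adjusted p = 2.00e-10). SLC7A3, a carrier of cationic amino acids, had the largest rise of the list, from 5.80, 4.87 and 5.60 to 18.5, 16.2 and 17.8 CPM (log2 fold change 1.69, SE 0.0947, adjusted p = 1.23e-11). SLC7A11, the cystine/glutamate antiporter, went from 27.1 to 28.1 CPM to 54.5 to 64 CPM (log2 fold change 1.09, SE 0.0567, adjusted p = 9.84e-12). SLC43A1, a carrier of large neutral amino acids, rose by 0.73 on the log2 scale (SE 0.0509, adjusted p = 2.68e-10). The largest of the 3 called falls was that of SLC7A8, with a log2 fold change of -0.53. SLC36A1, a proton-coupled carrier found on lysosomes, fell by 0.26 (SE 0.0540, adjusted p = 3.83e-04), and SLC7A6 fell by 0.24 (SE 0.0419, adjusted p = 6.27e-05). SLC36A1 and SLC7A6 were not called in the fit over 36 libraries (adjusted p = 0.337 and 0.435), where 7 transporters were higher and 0 lower.

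Folate one-carbon genes moved in both directions. Of 18 tested, 5 were higher and 9 lower, with a median of -0.12. The rises lay mostly on mitochondrial enzymes. AMT, the aminomethyltransferase of the glycine cleavage system, was at 3.43 to 4.70 CPM in control and 5.43 to 7.66 CPM in deprived libraries (log2 fold change 0.66, SE 0.147, adjusted p = 0.00100), and shares exonic sequence with NICN1 on its own strand. MTHFD2, the mitochondrial methylene-tetrahydrofolate dehydrogenase, was at 295, 304 and 304 CPM and at 386, 383 and 386 CPM. The log2 fold change of MTHFD2 was 0.36 (SE 0.0239, adjusted p = 1.72e-10). Folate genes were named only where the groups did not overlap, so their separation follows from that choice. ALDH1L2, the mitochondrial formyl-tetrahydrofolate dehydrogenase, rose by 0.28 (SE 0.0288, adjusted p = 6.77e-08). Among the falls, TYMS, thymidylate synthase, went from 160 to 164 CPM to 118 to 122 CPM (log2 fold change -0.42, SE 0.0302, adjusted p = 4.52e-10). GGH, a folate hydrolase, had a log2 fold change of -0.49 (SE 0.0609, adjusted p = 1.30e-06) and MTHFD2L one of -0.47 (SE 0.122, adjusted p = 0.00299). TYMS overlaps ENOSF1 on the opposite strand. The fit over 36 libraries called 1 folate gene higher, and AMT and ALDH1L2 had adjusted p-values of 0.0639 and 0.487 there.

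In the methionine cycle and transsulfuration, which passes sulfur and serine into cysteine, 7 of 12 genes were higher and 2 lower (median 0.10). CTH, cystathionine gamma-lyase, the step that releases cysteine, stood apart from the rest of this list. It was at 7.08, 8.41 and 7.51 CPM in control and 16.2, 16.4 and 15.7 CPM in deprived libraries, a 2.1-fold rise (log2 fold change 1.07, SE 0.0855, adjusted p = 2.15e-09). AHCYL2 rose by 0.28 on the log2 scale (SE 0.0498, adjusted p = 9.05e-05). MTR, methionine synthase, had a log2 fold change of -0.30 (SE 0.0436, adjusted p = 5.64e-05) and MTAP, of methionine salvage, one of -0.12 (SE 0.0402, adjusted p = 0.0167). MTAP lost its call in DESeq2 (adjusted p = 0.0962) and without the first or second control library (0.0736 and 0.0598), and AHCYL2, MTR and MTAP were not called in the fit over 36 libraries (0.112, 0.380 and 0.114), which left 2 genes of the list higher and 0 lower.

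The integrated stress response list had the highest median of the 22 lists. Of 27 members tested, 23 were called higher and 3 lower, the median log2 fold change was 0.44, and the summed level was 2540 to 2590 CPM in control and 3480 to 3510 CPM in deprived libraries. PYCR1, the other member, had 1 to 7 counts and overlaps MYADML2 on its own strand. ATF4 mRNA itself (chr22:39915700-39918688) was slightly lower, at 523, 523 and 532 CPM against 505, 507 and 498 CPM, a log2 fold change of -0.06 (SE 0.0215, adjusted p = 0.0168). ATF4 is controlled largely through its translation, which these data do not measure. Its call was lost in DESeq2 (adjusted p = 0.117), after removal of the trend over transcript length (0.718), in the fit over 36 libraries (0.803), and without the third control or the third deprived library (0.0872 and 0.0531).

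The largest rises of the list were a pair of secreted factors, a transcription factor and a stress protein. FGF21 (chr19:49258781-49261590), a hormone released under amino acid and mitochondrial stress, was at 1.78, 1.55 and 1.64 CPM in control and 11, 12.1 and 11.5 CPM in deprived libraries. The groups were 6.93-fold apart (log2 fold change 2.79, SE 0.128, adjusted p = 5.43e-13). NIBAN1 (chr1:184759858-184943640), a stress-inducible regulator of translation, was at 9.81, 12.3 and 9.14 CPM and at 57.1, 60.1 and 57.2 CPM (log2 fold change 2.48, SE 0.0728, adjusted p = 8.82e-15). ATF5 (chr19:50431959-50437192), a relative of ATF4, was at 37.6 to 40.9 CPM and 137 to 143 CPM (log2 fold change 1.84, SE 0.0393, adjusted p = 3.38e-18), and overlaps IL4I1 and NUP62 on the opposite strand. INHBE (chr12:57846106-57853063), a subunit of activin E, was at 27.7 to 31.4 CPM and 95.6 to 100 CPM (log2 fold change 1.72, SE 0.0459, adjusted p = 9.16e-17). Members chosen for mention after their values were seen are NUPR1, a stress-induced chromatin protein, TRIB3, a pseudokinase that feeds back on ATF4, GDF15, a secreted stress factor, and ASNS, asparagine synthetase, with log2 fold changes of 1.2, 0.88, 0.74 and 0.48. The members not called higher were ATF4, ATF3, ALDH18A1 and CHAC1. ATF3, a transcription factor that ATF4 induces, was at 20.6, 21.5 and 22.9 CPM and at 18, 16.9 and 15.6 CPM (log2 fold change -0.36, SE 0.0708, adjusted p = 2.64e-04). ALDH18A1, the entry enzyme of proline synthesis, fell by 0.21 (SE 0.0289, adjusted p = 5.76e-06). CHAC1, which degrades glutathione, was at 53.1 to 56.3 CPM and 50.3 to 54.4 CPM, and was not called (log2 fold change -0.06, SE 0.0443, adjusted p = 0.249).

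Promoters of the rising named genes were searched for TGATGNAA, the core letters of the C/EBP-ATF response element, on both strands, in RefSeq windows of 250 bases before to 50 after the gene start (GRCh38.p14). Windows were matched by symbol for 35 of the 47 rising named genes, and 4 of the 35 held the letters (11.4%), against 1270 of all 35116 windows (3.62%) and 184 of the 10460 windows of tested genes (1.76%). The set of 35116 was not reduced to 1 window per symbol, as the other sets were. Many named genes were drawn from lists in which the letters are frequent, given below. Their share therefore depends on the choice of lists and does not measure a link with the rise. Over all genes called higher the letters stood in 62 of 2656 windows (2.33%), and over those called lower in 40 of 2832 (1.41%). The matches of FGF21 and FUT1 are the same bases, so the 4 windows hold 3 separate stretches. The 4 windows are shown because they hold the letters, and rising named genes without the letters are not shown. FGF21 and FUT1 were among the largest rises of all genes, while CARS1 and MARS1 rose by 0.26 and 0.23. FUT1 makes the fucosylated H antigen and is described with the largest changes. Capitals mark the match, which reads TTGCATCA where it lies on the other strand.
FGF21, chr19:48755274-48755573, plus strand: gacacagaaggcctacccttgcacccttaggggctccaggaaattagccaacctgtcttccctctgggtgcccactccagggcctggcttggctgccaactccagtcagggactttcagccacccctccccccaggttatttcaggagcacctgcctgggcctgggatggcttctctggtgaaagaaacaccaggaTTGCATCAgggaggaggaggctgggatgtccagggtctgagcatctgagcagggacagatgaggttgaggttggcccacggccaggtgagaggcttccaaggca
FUT1, chr19:48755309-48755608, minus strand: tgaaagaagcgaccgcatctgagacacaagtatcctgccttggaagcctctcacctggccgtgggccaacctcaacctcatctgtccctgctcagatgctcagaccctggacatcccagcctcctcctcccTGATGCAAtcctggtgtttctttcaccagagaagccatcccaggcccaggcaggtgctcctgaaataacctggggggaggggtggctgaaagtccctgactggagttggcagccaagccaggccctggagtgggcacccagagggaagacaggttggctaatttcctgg
CARS1, chr11:3057374-3057673, minus strand: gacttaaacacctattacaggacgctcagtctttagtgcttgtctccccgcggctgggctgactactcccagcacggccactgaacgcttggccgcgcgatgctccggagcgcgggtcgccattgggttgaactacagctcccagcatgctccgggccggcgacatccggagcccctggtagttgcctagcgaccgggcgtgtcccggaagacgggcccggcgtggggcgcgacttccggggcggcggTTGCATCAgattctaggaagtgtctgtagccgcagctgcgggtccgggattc
MARS1, chr12:57487818-57488117, plus strand: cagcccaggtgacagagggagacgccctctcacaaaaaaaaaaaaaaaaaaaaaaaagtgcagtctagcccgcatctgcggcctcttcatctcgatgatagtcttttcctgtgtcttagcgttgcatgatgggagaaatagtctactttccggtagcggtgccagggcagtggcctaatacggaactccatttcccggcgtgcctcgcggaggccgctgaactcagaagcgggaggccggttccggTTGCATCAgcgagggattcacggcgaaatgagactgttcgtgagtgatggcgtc
FGF21 and FUT1 are transcribed away from each other, their windows share 265 bases, and their match is the same 8 bases, chr19:48755470-48755477, 54 bases before the FGF21 start and 119 before the FUT1 start. In CARS1 and MARS1 the match begins 2 and 4 bases before the start and runs across it. Among the tested members with a window, the letters stood in 4 of 22 of the stress response list (18.2%), 6 of 16 cytosolic synthetases (37.5%) and 4 of 13 transporters (30.8%). Not all of these genes rose. ATF3, with a log2 fold change of -0.36, and CHAC1, with -0.06, hold the letters as ASNS and FGF21 do.

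Aminoacyl-tRNA synthetases, which load tRNAs with their amino acids, were mixed, and the pair with the largest rise were those for serine and glycine. Of 20 cytosolic synthetases, 11 were higher and 7 lower (median 0.08). SARS1, which loads serine, was at 288, 287 and 283 CPM in control and 426, 412 and 414 CPM in deprived libraries (log2 fold change 0.55, SE 0.0241, adjusted p = 3.14e-13). GARS1, which loads glycine, was at 480, 492 and 476 CPM and at 668, 663 and 645 CPM (log2 fold change 0.45, SE 0.0226, adjusted p = 2.42e-12). Cytosolic synthetases were named here only where the groups did not overlap, so the separation of the libraries follows from that choice. CARS1 and MARS1, for cysteine and methionine, rose by 0.26 (SE 0.0289, adjusted p = 2.90e-07) and 0.23 (SE 0.0232, adjusted p = 7.59e-08), and MARS1 overlaps the stress gene DDIT3, itself at 0.37, on the opposite strand. FARSB and FARSA, the subunits of the phenylalanine enzyme, fell by 0.34 (SE 0.0382, adjusted p = 3.35e-07) and by 0.25 (SE 0.0316, adjusted p = 1.67e-06), and HARS1 fell by 0.33 (SE 0.0350, adjusted p = 1.28e-07). FARSA lost its call in the fit over 36 libraries (adjusted p = 0.211), which called 6 higher and 3 lower. Of 17 mitochondrial synthetases, 2 were higher and 7 lower (median -0.04). CARS2 had a log2 fold change of -0.57 (SE 0.0453, adjusted p = 2.10e-09) and HARS2, which abuts HARS1, one of -0.33 (SE 0.0598, adjusted p = 9.78e-05). WARS2 rose by 0.28 (SE 0.0620, adjusted p = 9.33e-04). PARS2, at 0.27 (SE 0.0892, adjusted p = 0.0175), lost its call in DESeq2 (0.0836) and without the second or the third control library or the first deprived one (0.0528, 0.0790 and 0.137). Over 36 libraries, 3 of the mitochondrial synthetases were lower.

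Genes of the endoplasmic reticulum did not move as 1 group. Of 20 chaperones and unfolded protein response genes, 6 were higher and 9 lower, with a median of -0.05. The stress sensors ERN1 and ATF6 rose, by 0.60 (SE 0.0666, adjusted p = 2.63e-07) and 0.50 (SE 0.0307, adjusted p = 4.25e-11) on the log2 scale. The largest falls were those of SDF2L1 and MANF, both lumenal proteins. SDF2L1 was at 48.7, 49.2 and 51.2 CPM in control and 22.8, 28.7 and 29.1 CPM in deprived libraries (log2 fold change -0.90, SE 0.0748, adjusted p = 6.97e-07), and MANF fell from 26.5 to 27.8 CPM to 16.1 to 19 CPM (log2 fold change -0.61, SE 0.0671, adjusted p = 1.97e-07). The chaperone HSPA5, named here after its value was seen, had a log2 fold change of -0.05 and was not called. Over 36 libraries, 2 genes of the list were called higher and 5 lower.

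Cholesterol synthesis genes fell almost throughout. Of 24 genes tested, 22 were lower and 1 was higher, the median was -0.43, and the summed level went from 3710 to 3740 CPM to 2960 to 3000 CPM. HMGCS1, which makes the precursor of mevalonate, was at 301, 297 and 294 CPM in control and 187, 185 and 188 CPM in deprived libraries. The spread within each group was a few CPM, and the log2 fold change was -0.67 (SE 0.0260, adjusted p = 4.16e-14). HSD17B7, of the later sterol steps, was at 19.1, 20 and 19.2 CPM and at 10.4, 11.2 and 10.1 CPM (log2 fold change -0.88, SE 0.0744, adjusted p = 5.49e-09). The gene that rose was SREBF2, which encodes the transcription factor of this pathway, at 377 to 392 CPM and 443 to 453 CPM (log2 fold change 0.22, SE 0.0233, adjusted p = 1.19e-07). LSS was not called. The fit over 36 libraries called 14 lower. Fatty acid genes showed no such shift, with 3 higher and 5 lower of 18 (median -0.02). The 18 do not include ACACA, which matched no row by symbol, or ELOVL7, which had too few counts. SCD, the stearoyl-CoA desaturase, rose from 1050, 1090 and 1060 to 1390, 1450 and 1420 CPM (log2 fold change 0.41, SE 0.0207, adjusted p = 2.00e-12). ACSS2 and ELOVL6, which supply acetyl-CoA and elongate chains, had log2 fold changes of -0.49 (SE 0.0401, adjusted p = 3.61e-09) and -0.35 (SE 0.0337, adjusted p = 3.01e-08). FADS3, at 0.26 (SE 0.0763, adjusted p = 0.00978), was not called without the second control or the third deprived library (0.0676 and 0.0508), nor over 36 libraries (0.170).

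Sphingolipids start from serine and palmitoyl-CoA, and phosphatidylserine carries serine as its head group. Of 19 genes of their synthesis, 8 were higher and 3 lower (median 0.06). CERS4, a ceramide synthase, was at 15.1 to 16.1 CPM in control and 20 to 21.3 CPM in deprived libraries (log2 fold change 0.40, SE 0.0681, adjusted p = 5.24e-05), and CERS1, which shares exons with GDF1, had a log2 fold change of 0.29 (SE 0.0811, adjusted p = 0.00618). SPTSSA, a small subunit of serine palmitoyltransferase, the enzyme that uses serine, fell from 50 to 54.5 CPM to 38.8 to 41.8 CPM (log2 fold change -0.38, SE 0.0475, adjusted p = 1.08e-06). SGMS2, a sphingomyelin synthase, fell by 0.64 (SE 0.129, adjusted p = 4.05e-04). CERS1 lost its call in DESeq2 (0.0528), and CERS1 and SGMS2 in the fit over 36 libraries (0.393 and 0.0714). DESeq2 called 5 genes of the list higher, and the fit over 36 libraries 4 higher and 1 lower.

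Nucleotide synthesis, which takes one-carbon units and glycine into purines, shifted little. Of 18 genes, 2 were higher and 9 lower (median -0.08). IMPDH1 and PRPS2, of guanine nucleotide and ribose phosphate synthesis, fell by 0.37 (SE 0.0379, adjusted p = 9.21e-08) and by 0.32 (SE 0.0373, adjusted p = 5.32e-07). GART, whose product takes in glycine and a formyl group, was at 308 to 315 CPM in control and 326 to 339 CPM in deprived libraries (log2 fold change 0.10, SE 0.0248, adjusted p = 0.00314). ADSS1, at 0.29 (SE 0.116, adjusted p = 0.0428), was not called under several alternatives, with adjusted p-values of 0.152 in DESeq2 and 0.0530 to 0.210 without the first or second control or the second or the third deprived library. In the fit over 36 libraries neither GART (0.593) nor ADSS1 (0.211) was called and 4 genes were lower.

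Proliferation genes were lower. Of 29 DNA replication genes, 26 were called lower and 0 higher (median -0.39), and of 25 G2/M and mitosis genes, 23 were lower and 0 higher (median -0.31), against 25.1% of all genes tested called lower. edgeR's counts higher were also 0 in both lists at an unadjusted p under 0.05, and DESeq2 called 0 higher, with 25 and 22 lower. In the replication list 1 gene was called higher without the first deprived library and 1 after removal of the length trend. UHRF1, also of the replication list, matched no row by symbol and is not among the 29. The summed level of the replication genes was 4200 to 4240 CPM in control and 3220 to 3260 CPM in deprived libraries. FEN1, the flap endonuclease of lagging strand synthesis, was at 116, 122 and 117 CPM and at 67.7, 65.6 and 70.6 CPM (log2 fold change -0.80, SE 0.0368, adjusted p = 5.43e-13), and shares sequence with FADS2 on its strand. CCNE2, the cyclin E2 of S phase entry, fell from 4.18 to 5.29 CPM to 2.24 to 2.82 CPM (log2 fold change -0.89, SE 0.155, adjusted p = 7.32e-05). Of the mitotic genes, HMMR, which organises spindle microtubules, was at 73.4, 69.2 and 68 CPM and at 41.5, 39.1 and 38.4 CPM (log2 fold change -0.82, SE 0.0453, adjusted p = 9.48e-12). AURKB, the chromosomal passenger kinase, fell by 0.61 (SE 0.0421, adjusted p = 2.74e-10). The fit over 36 libraries called 13 of the G2/M genes lower.

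**Figure D3:**
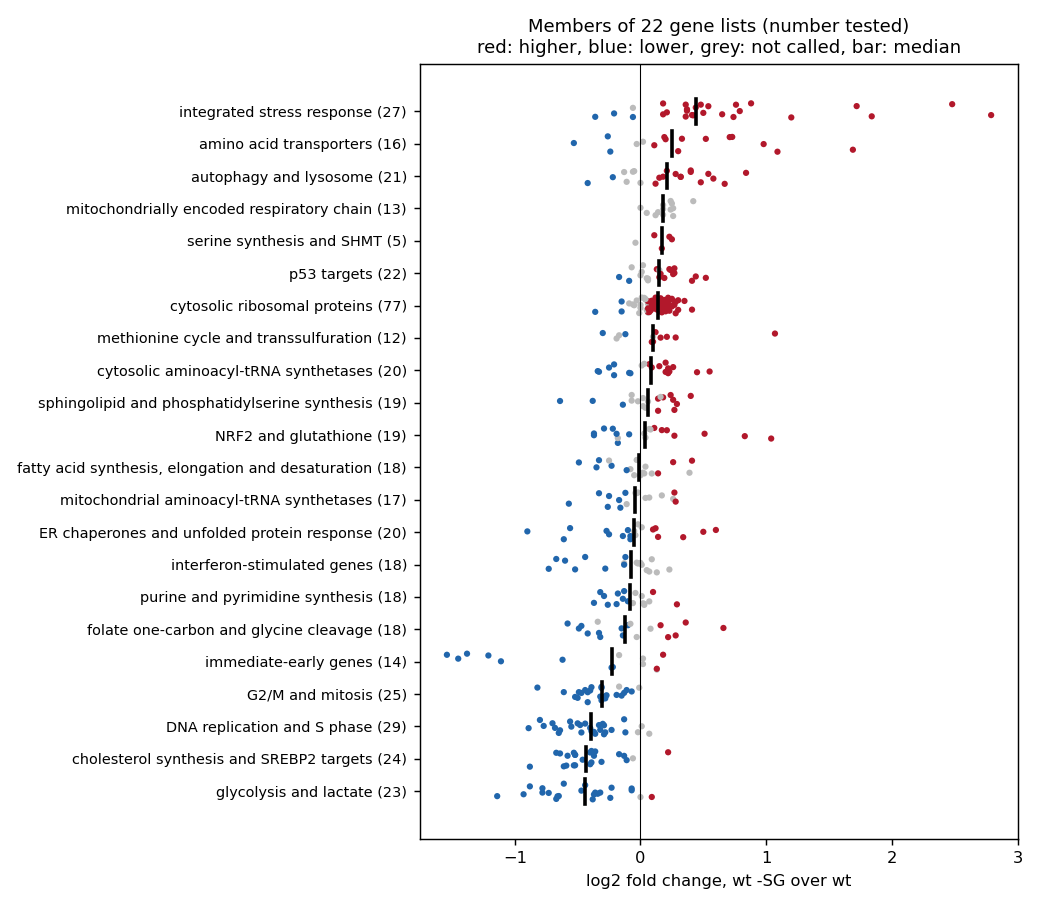
Log2 fold change of wt -SG over control (horizontal axis) of each tested member of 22 gene lists (rows, with the number tested), in red where called higher, blue where called lower and grey where not called; a black bar marks the median. The stress response list lies furthest to the right, with a median of 0.44, and the glycolysis list furthest to the left, with -0.44.

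The 2 p53 target genes that fell did so by little and the rises were moderate. Of 22 targets, 12 were higher and 2 lower (median 0.15). TP53INP1, a p53 cofactor linked to cell death and autophagy, was at 33 to 34.3 CPM in control and 46.3 to 51.2 CPM in deprived libraries (log2 fold change 0.52, SE 0.0501, adjusted p = 3.66e-08), and EDA2R, a receptor of the TNF family, rose by 0.44 (SE 0.0679, adjusted p = 2.16e-05). CDKN1A, the p21 inhibitor of cyclin-dependent kinases, was at 141, 144 and 139 CPM and at 132, 132 and 135 CPM (log2 fold change -0.09, SE 0.0299, adjusted p = 0.0176). That call was lost in DESeq2 (0.103), after removal of the length trend (0.199), over 36 libraries (0.483), and without the first deprived or the first or second control library (0.0574, 0.0515 and 0.0863). TIGAR, a phosphatase that lowers glycolytic flux, fell by 0.17 (SE 0.0400, adjusted p = 0.00166) and was not called over 36 libraries (0.109), where 5 targets were higher and 0 lower.

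Glycolysis genes had the lowest median of the 22 lists, -0.44, with 21 of 23 lower and 1 higher. Their summed level went from 11300 to 11500 CPM to 8890 to 9160 CPM. SLC16A3, the lactate exporter MCT4, was at 28.5, 33 and 29.5 CPM in control and 13.4, 14.3 and 13.4 CPM in deprived libraries, and overlaps CSNK1D on the opposite strand (log2 fold change -1.14, SE 0.0706, adjusted p = 4.74e-11). PFKFB4, which sets fructose 2,6-bisphosphate, was at 48.7, 53 and 53.3 CPM and at 28.6, 25.8 and 27 CPM (log2 fold change -0.93, SE 0.0535, adjusted p = 1.78e-11). Members noted after their values were seen are LDHA, lactate dehydrogenase, which went from 1300 to 1330 CPM to 758 to 775 CPM, and PDK1, the kinase that closes the entry to the citric acid cycle, which went from 51.8 to 53.8 CPM to 27.8 to 29.4 CPM. Their log2 fold changes were -0.78 and -0.88. The exception was PFKM, at 0.09 (SE 0.0267, adjusted p = 0.0121), which was not called in DESeq2 (0.0763), after removal of the length trend (0.0882), over 36 libraries (0.179) or without the second control library (0.0909). SLC16A1 was not called.

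**Figure D4:**
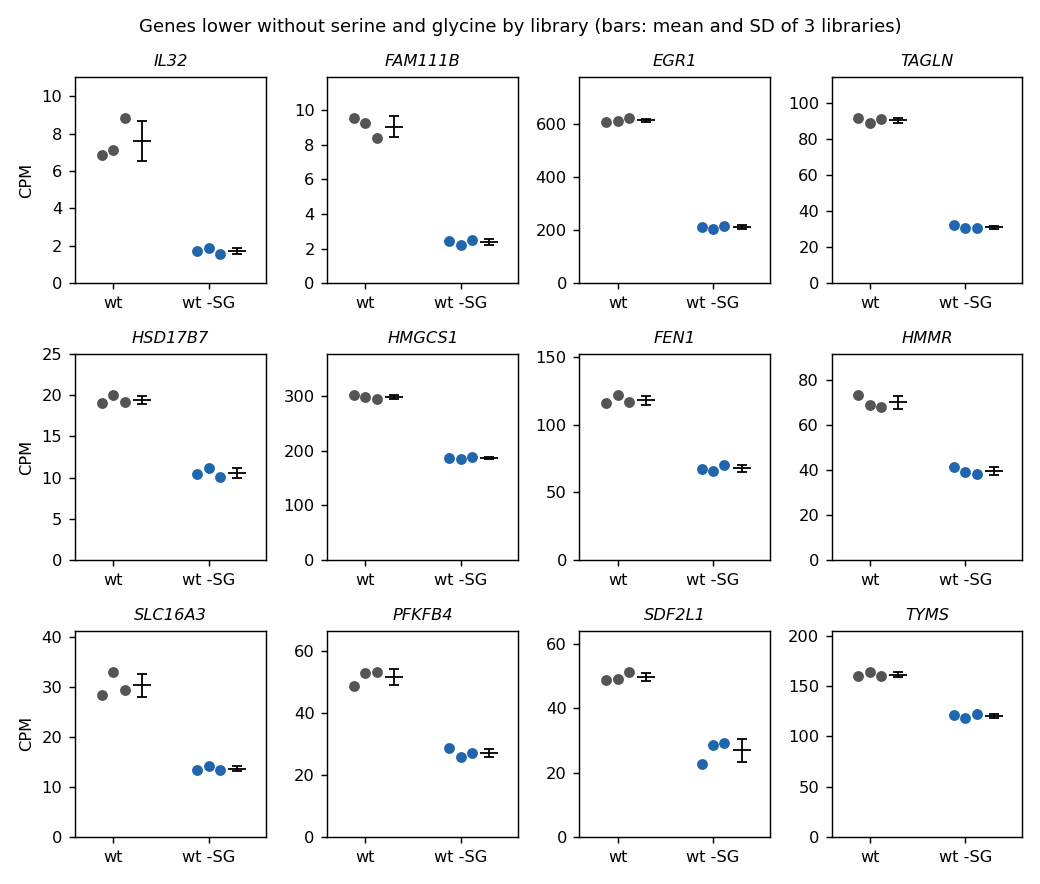
CPM in each of the 3 control (wt, grey) and 3 deprived (wt -SG, blue) libraries for 12 genes called lower, each panel with its own axis from 0; bars give the mean and SD of 3 libraries. The 12 genes were picked among called genes without overlap between the groups, so the separation in every panel follows from that choice. EGR1 was at 609 to 623 CPM in control and 203 to 217 CPM in deprived libraries.

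Redox genes split evenly, with 7 of 19 NRF2 and glutathione genes higher and 7 lower (median 0.04). The rises included ME1, malic enzyme, from 24.9, 26.1 and 25.8 to 46.1, 45.9 and 44.6 CPM (log2 fold change 0.83, SE 0.0494, adjusted p = 2.80e-11), and NQO1, a quinone reductase, from 141 to 147 CPM to 200 to 209 CPM (log2 fold change 0.51, SE 0.0302, adjusted p = 3.13e-11). PGD, a dehydrogenase of the pentose phosphate pathway, fell by 0.37 on the log2 scale (SE 0.0262, adjusted p = 4.52e-10). Over 36 libraries, 3 genes were called in each direction.

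Autophagy and lysosome genes rose in 14 of 21 cases and fell in 2 (median 0.21). GABARAPL1, of the autophagosome membrane, was at 23.6, 22.6 and 22.3 CPM in control and 42.4, 38 and 42.4 CPM in deprived libraries (log2 fold change 0.84, SE 0.0579, adjusted p = 2.49e-10). NBR1, a cargo receptor, was at 120 to 124 CPM and 185 to 200 CPM (log2 fold change 0.67, SE 0.0331, adjusted p = 1.73e-12). TFEB, the transcription factor of lysosomal genes, fell by 0.42 (SE 0.104, adjusted p = 0.00215) and ATG5 by 0.22 (SE 0.0433, adjusted p = 2.19e-04), neither of which was called over 36 libraries (0.184 and 0.219), where 9 genes of the list were higher.

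Cytosolic ribosomal protein genes rose by small amounts. Of 77 tested, 58 were higher and 3 lower (median 0.14), and their summed level was 39100 to 39700 CPM in control and 43500 to 43900 CPM in deprived libraries. These genes have many processed copies in the genome, so their counts depend on how reads with several alignments were treated. RPL22 rose from 135 to 136 CPM to 176 to 182 CPM (log2 fold change 0.41, SE 0.0291, adjusted p = 4.57e-10) and RPL37 from 515 to 531 CPM to 662 to 668 CPM (log2 fold change 0.35, SE 0.0213, adjusted p = 4.30e-11). RPL17 fell by 0.36 (SE 0.0882, adjusted p = 0.00203) and FAU by 0.15 (SE 0.0279, adjusted p = 1.21e-04), and the other called fall was RPL35. The genes called lower numbered 5 without the third deprived library and 5 with no filter on low counts. In the fit over 36 libraries, 1 of the 77 was higher and 0 lower, and RPL37, RPL17 and FAU had adjusted p-values of 0.219, 0.154 and 0.711. The 13 mitochondrially encoded genes of the respiratory chain had log2 fold changes of 0 to 0.42 (median 0.18), and edgeR called 0 of them, as did DESeq2 and an unadjusted p under 0.05. Their summed level differed within groups, at 30600 to 44100 CPM in control and 31900 to 54700 CPM in deprived libraries.

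Of 18 interferon-stimulated genes, 8 were lower and 0 higher (median -0.08), with 1 higher at an unadjusted p under 0.05 in edgeR, 1 called higher without the second deprived library and 0 in DESeq2. IFI27 fell from 5.58 to 6.48 CPM to 3.08 to 3.94 CPM (log2 fold change -0.73, SE 0.133, adjusted p = 1.21e-04) and IFI6 from 15.6 to 17.7 CPM to 10.2 to 10.5 CPM (log2 fold change -0.67, SE 0.0794, adjusted p = 6.06e-07), with IFI6 at an adjusted p of 0.0761 over 36 libraries, where 3 genes of the list were lower.

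Immediate-early genes, which growth factor and stress signals switch on within minutes, held some of the deepest falls. Of 14 tested, 8 were lower and 2 higher (median -0.22). EGR1 (chr5:137801168-137804992), a zinc finger transcription factor induced by ERK signalling, was at 609, 613 and 623 CPM in control and 213, 203 and 217 CPM in deprived libraries. The deprived libraries were at 0.344 times the control level (log2 fold change -1.54, SE 0.0259, adjusted p = 5.52e-20). Its relatives EGR2 and EGR3 fell from 6.71 to 7.42 CPM to 2.15 to 2.93 CPM (log2 fold change -1.45, SE 0.136, adjusted p = 2.37e-08) and from 11.8 to 13.5 CPM to 4.11 to 5.16 CPM (log2 fold change -1.38, SE 0.106, adjusted p = 1.23e-09). FOS and FOSB, noted after their values were seen, had log2 fold changes of -1.11 and -1.21. The exceptions were MYC, at 0.18 (SE 0.0325, adjusted p = 1.45e-04), and NR4A1, at 0.13 (SE 0.0433, adjusted p = 0.0194). NR4A1 was not called in DESeq2 (0.0943), after removal of the length trend (0.0707), over 36 libraries (0.283), or without the second control or the third deprived library (0.105 and 0.0840).

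Across all genes with a symbol and a mean of at least 50 counts, the largest rise was that of LAMP3 (chr3:182840003-182881627), a lysosomal membrane protein, from 0.669, 0.609 and 0.740 to 4.63, 4.90 and 5.28 CPM (log2 fold change 2.85, SE 0.196, adjusted p = 2.48e-10). FUT1 (chr19:49251268-49258647), the fucosyltransferase next to FGF21, was at 3.18, 3.99 and 3.91 CPM in control and 17.2, 17.2 and 18.2 CPM in deprived libraries (log2 fold change 2.24, SE 0.0999, adjusted p = 3.76e-13). LAMP3 and FUT1 are outside the lists, as are ASS1 and PRSS35. ASS1 (chr9:133320348-133376661), argininosuccinate synthase of arginine synthesis, was at 15.4, 15.3 and 13.8 CPM and at 48.9, 49.2 and 46.8 CPM (log2 fold change 1.70, SE 0.0580, adjusted p = 6.68e-15). PRSS35 rose from 0.836 to 1.53 CPM to 4.43 to 4.89 CPM (log2 fold change 1.95, SE 0.191, adjusted p = 4.28e-08). Also among the 10 largest rises were FGF21, NIBAN1, ATF5, INHBE and SLC7A3.

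The deepest fall was that of IL32 (chr16:3115298-3132193), a proinflammatory cytokine, from 6.86, 7.14 and 8.83 to 1.74, 1.86 and 1.56 CPM (log2 fold change -2.13, SE 0.155, adjusted p = 5.78e-10). FAM111B (chr11:58874658-58894885) was at 9.53, 9.24 and 8.40 CPM and at 2.44, 2.18 and 2.48 CPM (log2 fold change -1.94, SE 0.127, adjusted p = 1.22e-10). TAGLN (chr11:117070086-117078180), transgelin, an actin-binding protein of contractile cells that overlaps PCSK7 on the opposite strand, was at 91.7, 89.2 and 91.2 CPM and at 32.1, 30.4 and 30.8 CPM. Among these falls EGR1 and TAGLN had the highest levels, and the log2 fold change of TAGLN was -1.54 (SE 0.0415, adjusted p = 1.01e-16). The imprinted gene PHLDA2 fell by 1.51 (SE 0.193, adjusted p = 2.40e-06), CEND1 by 1.40 (SE 0.156, adjusted p = 2.68e-07), RIMKLA, which makes N-acetylaspartylglutamate, by 1.40 (SE 0.103, adjusted p = 7.09e-10), and CD69, an early activation antigen of leukocytes, by 1.38 (SE 0.136, adjusted p = 4.63e-08). CD69 was at 6.03 to 6.55 CPM in control and 2.22 to 2.55 CPM in deprived libraries, while the leukocyte marker PTPRC had 0 counts in all 6 libraries.

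The response of wt cells was compared with that of the resistant cis cells by the interaction of line and deprivation in a fit of 12 libraries, which share no control library. Of 15418 genes tested, 8321 (54.0%) were called, 4141 (26.9%) more positive in wt and 4180 (27.1%) more negative. The median absolute log2 fold change over all genes was 0.20 in wt and 0.40 in cis cells. For the serine enzymes the lines differed at all 5 genes. SHMT2 was at 294 to 300 CPM in control and 343 to 354 CPM in deprived wt cells, but at 329 to 331 CPM and 236 to 246 CPM in cis cells, so that it rose in wt and fell in cis (difference of log2 fold changes 0.69, SE 0.0362, adjusted p = 1.23e-18). SHMT1, not called in wt, had a log2 fold change of -0.79 in cis (difference 0.75, SE 0.0630, adjusted p = 7.63e-13). PHGDH and PSPH rose less in wt, at 0.17 and 0.11 against 0.49 and 0.45, and PSAT1 rose more, at 0.25 against 0.07. SLC1A4 rose to a like degree, 0.98 and 0.92, with a difference of 0.06 (SE 0.0642, adjusted p = 0.456).

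Some groups also differed in size of response, and others had like medians in wt and cis cells. Glycolysis genes had medians of -0.44 in wt and -0.41 in cis, and amino acid transporters 0.20 and 0.21. Single glycolysis genes still differed, with 20 of 23 called, 11 more positive and 9 more negative in wt. Of the 27 stress response genes, 22 had a called difference, 19 of them more negative in wt, and the median was 0.45 in wt and 1.23 in cis cells. ATF3 had a log2 fold change of -0.36 in wt and 3.15 in cis (difference -3.51, SE 0.0909, adjusted p = 1.68e-27), and ATF4 -0.06 and 0.35 (difference -0.42, SE 0.0331, adjusted p = 1.70e-13). INHBE was among the 3 that rose more in wt, at 1.73 against 0.79 (difference 0.94, SE 0.0906, adjusted p = 2.80e-11). FGF21 and NIBAN1 had no called difference (0.78, SE 0.454, adjusted p = 0.145, and -0.06, SE 0.0748, adjusted p = 0.554). Of the 25 G2/M genes, 24 differed, all 24 with the smaller fall in wt (median -0.31 against -1.31), and of 24 cholesterol genes 22 differed, 21 with the more positive value in wt (median -0.43 against -1.41). HMMR was the exception among the G2/M genes, at -0.82 and -0.92 (difference 0.10, SE 0.0682, adjusted p = 0.211). Immediate-early genes differed in 11 of 15 cases, 10 of them more negative in wt, with a median of -0.22 in wt and 0.28 in cis. CTH rose in wt alone by these tests, at 1.07 against 0.06 in cis (difference 1.02, SE 0.0999, adjusted p = 4.28e-11). TAGLN fell in wt and rose by 0.32 in cis (difference -1.86, SE 0.103, adjusted p = 5.20e-18).

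**Figure D5:**
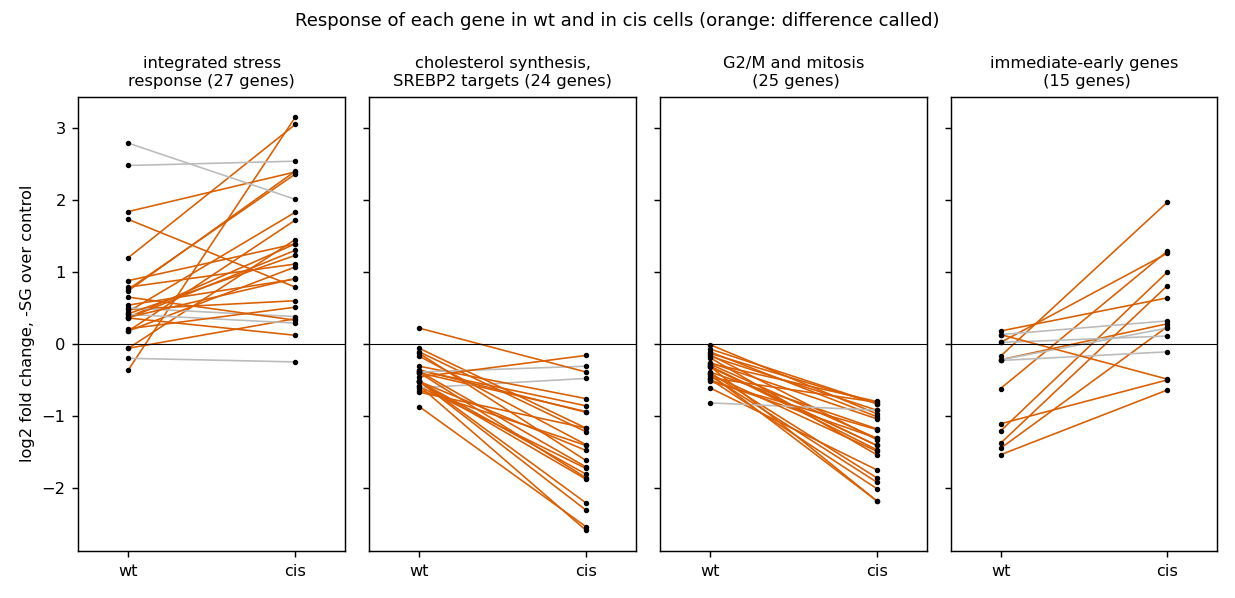
Log2 fold change of deprivation over control (vertical axis) in wt and in cis cells, from 1 fit of 12 libraries; each line is 1 gene, orange where the difference between the lines was called and grey where not. Stress response genes have a median of 0.45 in wt and 1.23 in cis, G2/M genes -0.31 and -1.31, cholesterol genes -0.43 and -1.41, and immediate-early genes -0.22 and 0.28.

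The largest called differences came mostly from genes that 1 line barely expressed, where the fitted value depends on a small added count. STAC2 and PITPNM3 were measured in both lines. STAC2 was at 27.8 to 30.7 CPM in control and 25.3 to 29 CPM in deprived wt cells, with no call there, while cis cells went from 11.3 to 14.1 CPM to 0.771 to 0.909 CPM (difference 3.77, SE 0.176, adjusted p = 3.58e-20). PITPNM3 was at 1.83 to 2.28 CPM and 0.907 to 1.94 CPM in wt, also not called, and went from 1.44 to 1.61 CPM to 43 to 51.3 CPM in cis cells (difference -5.41, SE 0.292, adjusted p = 5.99e-17). Without the first deprived wt library PITPNM3 was called lower in wt, with an adjusted p of 0.0442. IL32 fell in wt and, from 0.107 to 0.130 CPM, reached 1.27 to 1.82 CPM in deprived cis cells (difference -5.81, SE 0.421, adjusted p = 1.43e-14). UNC5C, a netrin receptor, rose by 0.42 in wt (SE 0.0627, adjusted p = 1.26e-05) and was at 0 to 0.325 CPM in cis cells. Its rise in wt was not called over 36 libraries (adjusted p = 0.055).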

How the data were processed

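RNA was sequenced from A2780 wt cells with or without serine and glycine, 3 libraries each, grouped by GEO's labels. The authors used STAR for alignment (GRCh37.p13) and HTSeq with GENCODE v19 exons for counting, and deposited raw counts per gene; the strand setting is not stated. Its 3 rows without a gene were left out of library sizes and tests; reads on no feature were 7.21% to 8.18% of a library. Pairs of libraries of a condition had a mean chi-square per gene of 1.70 to 13.5 and a median of 0.538 to 0.832. A part of the genes thus differed beyond sampling noise, and no libraries were merged. Total counts set the precision of each count.

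Differences were tested in R 4.3.3 with edgeR 4.0.16 (TMM, filterByExpr, estimateDisp, robust glmQLFit, glmQLFTest, Benjamini-Hochberg over all genes tested, called at adjusted p under 0.05). The SE is the absolute log2 fold change divided by the square root of F. The cis comparison used the interaction term over 12 libraries. The study's methods name DESeq2, run as an alternative (version 1.42.0). Symbols and GRCh37 positions came from GENCODE v44 (55538 of 57820 identifiers); promoters came from RefSeq (GRCh38.p14). Tables and plots used Python 3.11.15, pandas 2.3.3 and matplotlib 3.10.9. Tests were tried on simulated counts.

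Gene lists, members and tests were chosen with earlier results of these data known. Named were 8 genes (5 of serine synthesis and SHMT, SLC1A4, SLC1A5, ATF4), the 2 largest called changes per list and direction (4 in the stress response, folate, transporter and cytosolic synthetase lists), the 10 over all genes, where the groups did not overlap and the mean count was 50 or more, the 5 largest called interactions per direction at that count, and up to 4 risen genes whose promoter holds TGATGNAA. Some genes the rule names are not reported here.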

Additional observations from a re-analysis of the deposited data

Results flagged for a closer look

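The response to deprivation differed between wt and cis cells, by the interaction term of edgeR's quasi-likelihood test over 12 libraries with Benjamini-Hochberg adjustment, in 8321 of 15418 genes. The 5 largest differences in each direction among genes with a mean of at least 50 counts were flagged. They are given as wt minus cis on the log2 scale, with the fitted value depending on the added count where 1 line was at or near 0.

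More positive in wt were UNC5C at 5.11 (adjusted p = 8.16e-04), at 21.1 to 31.9 CPM in wt and 0 to 0.325 CPM in cis libraries. ST3GAL1, at 3.99 (adjusted p = 0.0351), had counts in 1 of 6 wt libraries, at 0.196 CPM, and 37.3 to 69.5 CPM in cis libraries, and without that library, the third deprived one, the adjusted p was 1. ARHGAP20, at 3.89 (adjusted p = 0.0314), was at 0 to 0.150 CPM in wt and 11.6 to 17 CPM in cis libraries. LINC02485 was at 3.83 (adjusted p = 4.42e-06), with 0 to 0.694 CPM in wt and 14.3 to 15.7 CPM in cis libraries. STAC2 was at 3.77 (adjusted p = 3.58e-20) and well above 0 in control libraries of both lines, at 27.8 to 30.7 and 11.3 to 14.1 CPM. The calls of ST3GAL1 and ARHGAP20 were also lost without any single control wt library (adjusted p = 0.0638 to 0.0677 and 0.0633 to 0.0665), and that of ARHGAP20 without the first deprived wt library (0.215), and both in the fit over 36 libraries (0.125 and 0.310).

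More negative in wt were SLFN5 at -6.03 (adjusted p = 0.00124), IL32 at -5.81 (1.43e-14), MYO1D at -5.78 (2.28e-05), PITPNM3 at -5.41 (5.99e-17) and ARRDC4 at -5.22 (4.54e-08). SLFN5, MYO1D and ARRDC4 stayed at or under 0.332 CPM in all 6 wt libraries, while deprived cis libraries held 10.4 to 12.3, 11.5 to 12.9 and 20.3 to 22 CPM. SLFN5 lost its call without the second control wt library (adjusted p = 0.0706).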

How the results depend on the processing

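No named gene's log2 difference, in wt cells or between lines, changed sign under the alternatives run. The median over all genes, near 0, did so in wt cells with total counts without TMM (-0.01, from 0.01) and for the interaction over 36 libraries (0.03, from -0.02). Of 7021 genes called in wt cells, asking for a log2 change of 1 or more in size left 260 (135 higher, 125 lower). The fit over all 36 libraries, which tested 16677 genes, gave 2821 (1426 higher, 1395 lower). For the interaction these alternatives gave 1805 (536 and 1269) and 4880 (2633 and 2247). In wt cells, DESeq2 called 5331, DESeq2's size factors 7011, total counts without TMM 6951 (45.7% of them higher, against 48.9%), no filter 7053, at least 10 counts in every library 6870, protein-coding genes alone 6529, removal of the transcript length trend 6908, and leaving out 1 library 6087 to 7001. The interaction gave 7312 with DESeq2 (3774 positive and 3538 negative, against 4141 and 4180), and 7894 to 8196 with 1 wt or wt -SG library left out; it was not run without a filter, on protein-coding genes alone or with the length trend removed. Median log2 fold changes ran from -0.05 in the shortest of 5 equal classes of transcript length to 0.05 in the longest. Of 107 named genes tested in wt cells, 9 lost their call with DESeq2, 29 with 36 libraries, 4 without the length trend and at most 7 with any 1 library left out. Of 44 list counts, 7 moved by over 1.5 times with DESeq2, 30 with 36 libraries and 0 to 6 with 1 library left out. Depth limits genes with few reads, such as LAMP3, at 0.609 to 0.740 CPM in control libraries. No paired analysis was possible because the library numbers in the labels run from 1 to 36 with no replicate number inside each condition.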

Other observations

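The gene groups here were chosen after their values were seen and are given as a description. Of 24 tested genes that hypoxia induces, 17 were lower without serine and glycine and 4 were higher, with a median log2 fold change of -0.44. The list shares SLC16A3, PFKFB4, PDK1, PGK1, LDHA and SLC2A1 with the glycolysis list. Outside that list, AK4, a mitochondrial adenylate kinase, had a log2 fold change of -1.11 and P4HA2, a collagen prolyl hydroxylase, one of -0.76. CA9, a carbonic anhydrase of the cell surface, had one of -2.96 at low counts. The largest of the 4 rises was that of EPAS1, which encodes the factor HIF-2 alpha, at 2.09, also at low counts. HIF1A rose by 0.27.

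Of 18 tested genes that ERK signalling drives or that feed back on it, 7 were higher and 8 lower, with a median of -0.02. The lower ones included the dual-specificity phosphatases DUSP5 and DUSP2, at -1.31 and -1.24, and DUSP6, at -0.56, while the sprouty gene SPRY4 was at 0.10.

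Of 10 tested genes of arginine and proline metabolism, 4 were higher and 4 lower, with a median of 0. The rises were those of ASS1 (1.70), SLC7A3 (1.69), ARG2 (1.03), a mitochondrial arginase, and SLC7A1 (0.30). ASL, the step after ASS1, had a log2 fold change of 0.04 and was not called.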
